A study of Saccharomyces cerevisiae with 5 samples.

Results

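The genes described here encode 10 heat shock and stress-induced proteins of Saccharomyces cerevisiae: HSP12, HSP26, HSP42, HSP104, HSP30, HSP31, HOR7, DDR2, DDR48 and GRE1. They were picked by name from the 6256 genes on the array, and all 10 were measured, on 15 of the 10263 gene spots. The choice was made with the ratios of these arrays known, including the weaker ratios of replicate 1, so the ratio of the mutant to the wild type is given for these genes as a description and was not tested.

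The mutant was the chs2Δ strain YFR23, in which the chitin synthase II gene CHS2 is replaced by a kanamycin resistance marker, and the control was its haploid parent, MGD353 in the sample sources. Both strains are MATα, share mutant alleles of TRP1, URA3, LEU2 and HIS3, and are resistant to cycloheximide. Each genotype was represented by 1 strain. Cultures were grown overnight at 26 °C, and the methods state a range of optical density for them rather than growth to saturation. The methods list complete synthetic medium and the same medium lacking histidine, without naming the strain for either. Both strains used here carry the HIS3 mutation with no histidine marker, and in the paper's strain table only the myo1Δ strains carry one (HIS5). No stress treatment is described. Each of 5 arrays paired 1 culture of either strain in opposite dyes, with chs2Δ in Cy5 on replicates 1, 3 and 5 and in Cy3 on replicates 2 and 4. Replicate 1 sat alone on slide 1, replicates 2 and 3 shared slide 2, and replicates 4 and 5 shared slide 3.

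Yeast cells that meet heat, oxidants, osmotic shock or the exhaustion of glucose switch on a common set of protective genes. Heat shock factor Hsf1 binds heat shock elements in the promoters of chaperone genes, and the paired zinc-finger factors Msn2 and Msn4 bind stress response elements when protein kinase A activity is low. Most of the 10 genes are textbook targets of one or both routes, and several are used as reporters of them. The label "small" holds for most but not for all: the coding sequence of HOR7 is 180 bp and that of DDR2 186 bp, HSP12 has 330 bp, GRE1 507 bp, HSP26 645 bp, HSP31 714 bp, HSP30 999 bp, HSP42 1128 bp and DDR48 1293 bp, while HSP104 has 2727 bp.

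CHS2 itself had log2 ratios of chs2Δ over wild type of -0.35, -0.56, -0.95, -1.63 and -0.58 on replicates 1 to 5, with a mean of -0.81 (SE 0.17, adjusted p = 0.0025, limma), and its spot was above background in chs2Δ on 4 of the 5 arrays. MYO1, whose deletion strain is named in the array titles although the sample sources name the chs2Δ strain, averaged -0.31 (SE 0.06, adjusted p = 0.0013, limma). Of the mating-type markers, the MATα genes MF(ALPHA)1, MF(ALPHA)2, SAG1 and STE3 were lower in chs2Δ although both strains are listed as MATα, with mean log2 ratios of -2.11 to -2.53. MF(ALPHA)1, which encodes α-factor, gave 193 to 488 intensity units over background in chs2Δ and 4053 to 7125 in the wild type. The MATa genes MFA1, MFA2, STE2 and BAR1 stood above background on 0 to 2 arrays in chs2Δ and on 1 to 4 arrays in the wild type. The chs2Δ channel was the dimmer one, at 0.204 to 0.618 of the wild-type median signal on the 5 arrays. A global loess curve therefore brought the centre of each array to 0, and every normalized ratio below is relative to that centre and carries no information on total mRNA.

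After normalization every one of the 10 genes had a ratio above 0 on 5 of 5 arrays, that is, a higher level in chs2Δ, beside 34.9% of all genes. The ratios fell into 2 size classes. HSP26, HSP12, HOR7, HSP42 and HSP104 had mean folds of 7.67 to 19.4, while DDR48, DDR2, HSP30, GRE1 and HSP31 had mean folds of 1.59 to 2.66. The median over the 10 genes was a log2 ratio of 2.17, against -0.01 over all 6246 genes tested. In the limma fit over all genes, all 10 lay above the threshold as higher (Benjamini-Hochberg adjusted p below 0.05), beside 35.7% of all genes called higher and 36% called lower; because the choice of genes used this contrast, nothing is read from these counts.

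HSP26 encodes a small heat shock protein of the α-crystallin family, which forms large oligomers and holds unfolding proteins in a state from which they can be refolded. Its signal over background in chs2Δ was 247, 1875, 789, 1126 and 1167 intensity units on replicates 1 to 5, against 120, 110, 154, 110 and 79.1 in wild type. The chs2Δ signals all lay above the wild-type signals, and replicate 1 was the lowest of the chs2Δ values. The normalized log2 ratios were 2.66, 4.73, 4.15, 5.20 and 4.65, with a mean of 4.28 ± 0.98 (SD, n = 5), or 19.4-fold. This was the fifth largest mean ratio on the array, and HSP26 had the largest SD of the 10 genes. Its wild-type signals were about as low as those of GRE1 (76.3 to 179 intensity units), a dim spot. The fold ranged from 8.72 without background correction to 33.4 with an offset of 0.

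HSP42 encodes the other cytosolic α-crystallin protein, which is active in unstressed cells too and gathers misfolded proteins into peripheral deposits. It gave 278, 1288, 699, 870 and 865 intensity units in chs2Δ, against 254, 178, 246, 191 and 149 in wild type. The channels differed little on replicate 1 and were well separated on the other arrays. The log2 ratios were 2.18, 3.67, 3.42, 4.28 and 3.57 (mean 3.42 ± 0.77, SD, n = 5), a 10.7-fold difference.

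HSP104 encodes the hexameric disaggregase of the Hsp100 family, which pulls proteins out of aggregates formed in part with Hsp26 and Hsp42 and is needed for survival of severe heat. Its chs2Δ signals were 346, 1525, 774.5, 986 and 1109 intensity units, and its wild-type signals 486, 360, 380, 483 and 264. In replicate 1 the chs2Δ signal was below the wild-type signal, and on the other 4 arrays it was above. The log2 ratios were 1.81, 3.15, 3.03, 3.42 and 3.29 (mean 2.94 ± 0.65, SD, n = 5), or 7.67-fold, and replicate 1 stood well below the other 4 arrays.

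HSP12 encodes a small hydrophilic protein that folds at membranes and stabilizes them, and it is among the most widely used reporters of Msn2 and Msn4. Its signals were 584.5, 2095, 798, 938 and 938 intensity units in chs2Δ and 191, 149, 171, 186 and 75.6 in wild type. No chs2Δ value overlapped a wild-type value. The log2 ratios of 3.60, 4.62, 3.99, 4.41 and 4.33 averaged 4.19 ± 0.40 (SD, n = 5), an 18.3-fold difference with the smallest SD among the 5 large ratios. On replicate 2 this value rests on 1 of the gene's spots, the other having been marked as poor. The wild-type signals of HSP12 were also about as low as those of GRE1. The fold ranged from 8.78 without background correction to 28.1 with an offset of 0.

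HOR7 and DDR2 are paralogs that encode very short proteins, HOR7 first found as induced by high osmolarity and DDR2 by DNA damage. HOR7 gave 3656, 14605, 7052, 5203 and 4806 intensity units in chs2Δ, against 2983, 2122, 2466, 1547 and 1019 in wild type. Its log2 ratios were 2.76, 4.19, 3.82, 4.30 and 3.81 (mean 3.78 ± 0.61, SD, n = 5), or 13.7-fold. All its chs2Δ signals lay above its wild-type signals, with the narrowest separation on replicate 1.

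For DDR2 the picture in raw signal was different. It gave 180, 370, 243, 181 and 222 intensity units in chs2Δ, against 435, 307, 404, 552 and 219 in wild type, so the groups overlapped and chs2Δ was the brighter channel on only 2 arrays. Relative to the centre of each array its log2 ratios were 0.99, 1.16, 1.26, 0.79 and 1.22 (mean 1.08 ± 0.19, SD, n = 5), a 2.12-fold difference. The paralogs thus differed in mean log2 ratio by 3.78 against 1.08, each relative to the same array centre.

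DDR48 encodes a hydrophilic, repeat-rich protein that accumulates after DNA damage and osmotic stress, and the array annotates it to DNA repair. Its signals were 574, 1925, 1164, 822 and 1325 intensity units in chs2Δ and 1401, 1971, 1825, 2042 and 981 in wild type. Only replicate 5 was brighter in chs2Δ. The log2 ratios were 1.16, 1.26, 1.49, 1.26 and 1.88 (mean 1.41 ± 0.29, SD, n = 5), or 2.66-fold. The replicate 1 value rests on 1 spot, and YMR173W-A, an uncertain reading frame that overlaps DDR48 and has a probe of its own, had a mean log2 ratio of 0.88.

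GRE1 encodes a hydrophilin, a protein of the kind linked to survival of drying, and its spot was dim. It gave 88.6, 187, 85.2, 59.0 and 76.4 intensity units in chs2Δ, against 179, 113, 153, 118 and 76.3 in wild type, and the ranges overlapped. Its log2 ratios of 0.87, 0.84, 0.83, 0.47 and 0.74 averaged 0.75 ± 0.17 (SD, n = 5), or 1.68-fold, and it was the only 1 of the 10 genes with its highest ratio on replicate 1.

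HSP30 encodes a plasma membrane protein that restrains the proton pump Pma1 and is induced by heat, ethanol and weak acids. Its signals were 97.9, 359, 125, 104 and 240 intensity units in chs2Δ and 222, 326, 246, 156 and 258 in wild type. The ranges overlapped, and chs2Δ was the brighter channel on replicate 2 alone. The log2 ratios were 0.68, 0.99, 0.88, 1.09 and 1.15 (mean 0.96 ± 0.19, SD, n = 5), or 1.95-fold. On replicate 1 its spots read 0.28 and 1.08, the widest disagreement between spots of a gene among the 5 genes with a pair of spots.

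HSP31 encodes a methylglyoxalase and chaperone of the DJ-1 family that is induced by oxidants through Yap1. It had 109, 338, 154, 131 and 141 intensity units in chs2Δ, against 396, 360, 399, 333 and 204 in wild type. It was the only gene of the 10 that was dimmer in chs2Δ on every array before normalization. The log2 ratios of 0.41, 0.79, 0.64, 0.81 and 0.68 averaged 0.67 ± 0.16 (SD, n = 5), a 1.59-fold difference and the smallest of the 10.

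**Figure D1:**
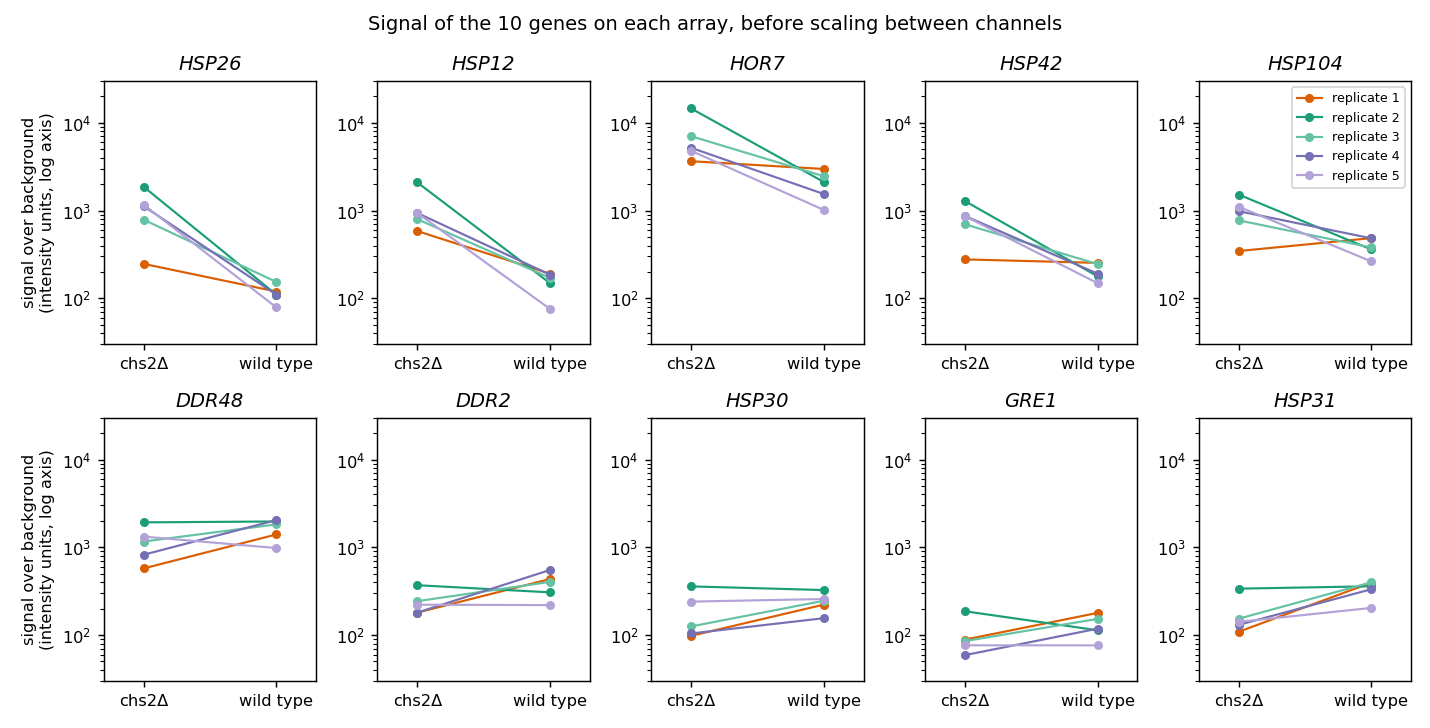
Signal over local background, in intensity units on a log axis, of the 10 genes in the chs2Δ and wild-type channel of each array, with a line joining the channels of 1 array and spots of a gene averaged. HSP26, HSP12, HOR7 and HSP42 fall towards the wild type on all 5 arrays and HSP104 on 4, while HSP31 climbs on all 5.

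Before any scaling, HSP26, HSP12, HOR7 and HSP42 were brighter in chs2Δ than in wild type on all 5 arrays, which held for 38 of 6082 genes (0.625%). HSP104 was brighter in chs2Δ on 4 arrays, and the remaining 5 genes on 0 to 2. The median unscaled log2 ratio of all genes lay between -2.32 on replicate 1 and -0.52 on replicate 2. For the 10 genes, normalization added 0.12 to 2.57 log2 units to the unscaled ratio, depending on the array and on the brightness of the spot. The direction of the 5 smaller ratios therefore rests on taking the centre of the array as unchanged. The 4 largest were above 0 before scaling too, with unlike detector settings of the channels on replicates 1 to 3.

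**Figure D2:**
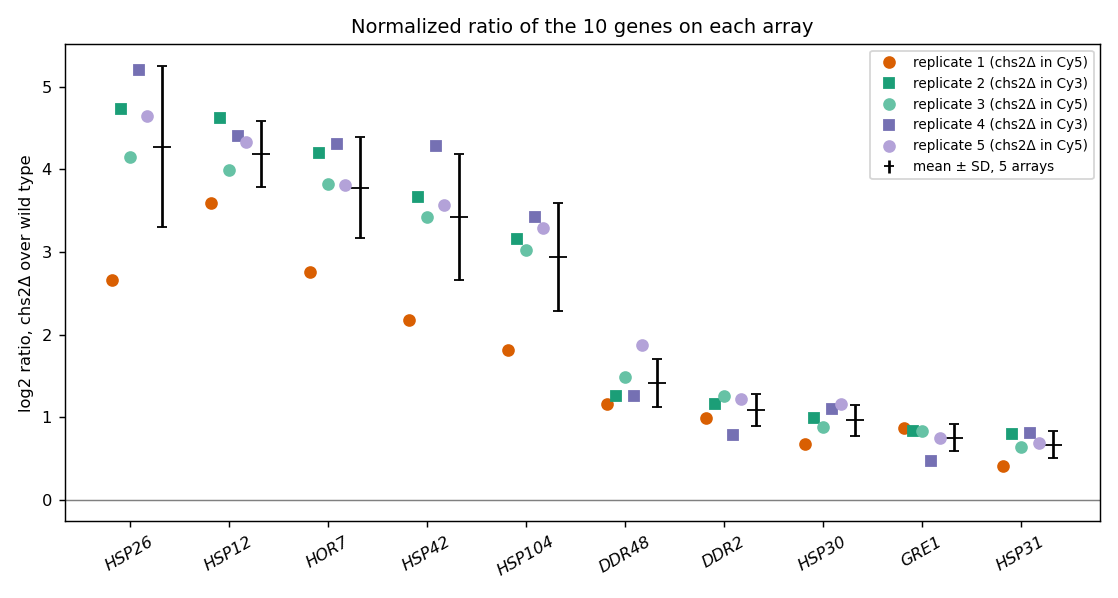
Normalized log2 ratio of chs2Δ over wild type for the 10 genes on each of 5 arrays, ordered by mean, with circles where chs2Δ carried Cy5 and squares where it carried Cy3. Black bars give the mean ± SD over 5 arrays. All 50 points lie above 0, and replicate 1 lies lowest for the 5 genes on the left.

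In the order of the mean ratios, HSP26 (4.28) was followed by HSP12 (4.19), HOR7 (3.78), HSP42 (3.42), HSP104 (2.94), DDR48 (1.41), DDR2 (1.08), HSP30 (0.96), GRE1 (0.75) and HSP31 (0.67). Neighbours in this order overlapped in their ranges over the arrays in all 9 cases. Taken array by array, HSP12 lay above HOR7, HOR7 above HSP42, HSP42 above HSP104, HSP104 above DDR48 and DDR48 above DDR2 on 5 of 5 arrays. With median centring HOR7 lay above HSP42 and DDR48 above DDR2 on only 2 arrays each, and without background correction HOR7 had the highest mean (3.61, with HSP12 at 3.13 and HSP26 at 3.12), so the order within either size class depends on the processing. HSP26 exceeded HSP12 on 4 arrays, with a mean difference of 0.09 log2 and an SD of 0.64, so these 2 genes did not differ beyond the spread between arrays. The largest step was that from HSP104 to DDR48, with a mean difference of 1.53 log2 (SD 0.57).

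Replicate 1 gave the lowest ratio of the 5 arrays for 8 of the 10 genes, the others being DDR2 and GRE1, which were lowest on replicate 4. With median centring the count was 6, since HSP30 and DDR48 were then no longer lowest there. Over all genes with 5 arrays, replicate 1 was lowest for 26%. The ratio of replicate 1 minus the mean of replicates 2 to 5 was -2.03 log2 for HSP26, -1.55 for HSP42, -1.41 for HSP104, -1.28 for HOR7 and -0.74 for HSP12. For the 5 smaller ratios it lay between -0.35 for HSP30 and 0.15 for GRE1. HSP26 was 6.31-fold higher in chs2Δ on replicate 1 and 25.7-fold on the mean of the other arrays, and HSP104 was 3.50-fold and 9.34-fold higher. The ratio of CHS2 was also nearest to 0 on replicate 1, and its part in these gaps was not tested.

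Lower ratios on replicate 1 were also seen among other genes. Of 2163 other genes called higher, 42.6% were lowest on replicate 1, with a median gap of -0.10 log2. Genes picked for high ratios on replicates 2 to 5 alone can be expected to lie lower on the array left out of the choice, so the following shares are a description. Of 618 other genes with a mean log2 ratio of at least 1 on replicates 2 to 5, 385 (62.3%) were lowest on replicate 1, with a median gap of -0.30 log2. With the limit at 3, replicate 1 was lowest for 24 of 31 other genes (77.4%), with a median gap of -0.91 and quartiles of -1.45 and -0.32. The gaps of HSP26 and HSP42 lay below the lower of these quartiles, those of HSP104 and HOR7 between the median and the lower quartile, and that of HSP12 above the median. The ratios of all genes were also least spread on replicate 1, with an SD of 0.68 log2 against 0.77 to 0.85 on the other arrays.

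**Figure D3:**
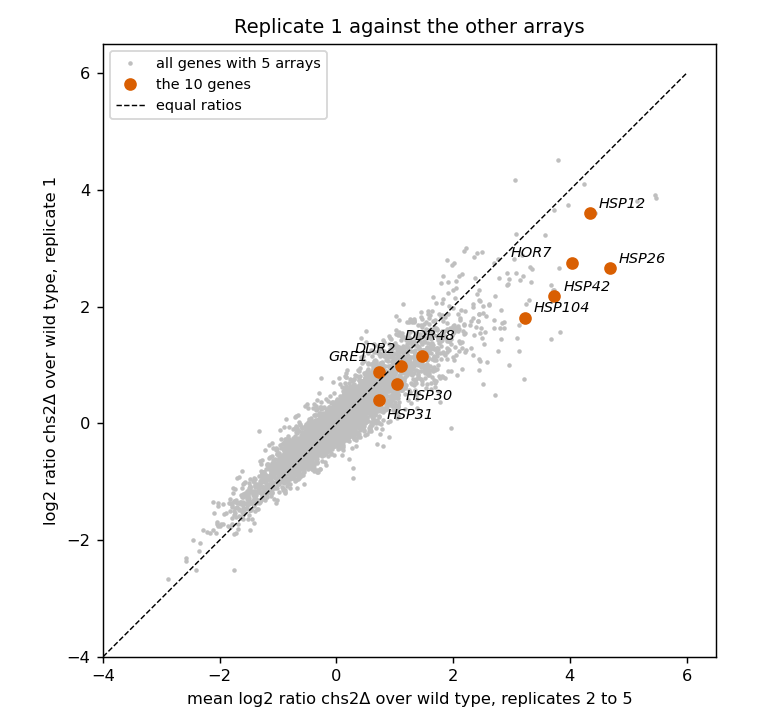
Log2 ratio of chs2Δ over wild type on replicate 1 (vertical) against the mean of replicates 2 to 5 (horizontal) for all genes with 5 arrays (grey) and the 10 genes (orange). The dashed line marks equal ratios. HSP26, HSP42, HSP104, HOR7 and HSP12 lie below it by 0.74 to 2.03 log2, and GRE1 lies above it by 0.15.

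The gap of replicate 1 was found in the chs2Δ channel for the genes with large ratios. After the average brightness of the arrays had been equalized, the chs2Δ level of HSP26 on replicate 1 was 2.22 log2 below the mean of the other arrays, and the wild-type level was 0.20 below it. For HSP42 the differences were -1.55 in chs2Δ and 0.00 in wild type, for HSP104 -1.48 and -0.07, and for HSP12 -0.83 and -0.09. HOR7 was 1.04 lower in chs2Δ and 0.24 higher in wild type. The median over the 10 genes was -0.93 in chs2Δ and -0.09 in wild type. DDR48 was lower in both channels, by 1.03 in chs2Δ and 0.72 in wild type, and its replicate 1 value leaves out the brighter spot. HSP30 was also lower in both, with differences of -0.80 in chs2Δ and -0.44 in wild type. These single-channel levels are open to differences between the dyes, and the wild-type signals of HSP26 and HSP12 were dim.

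**Figure D4:**
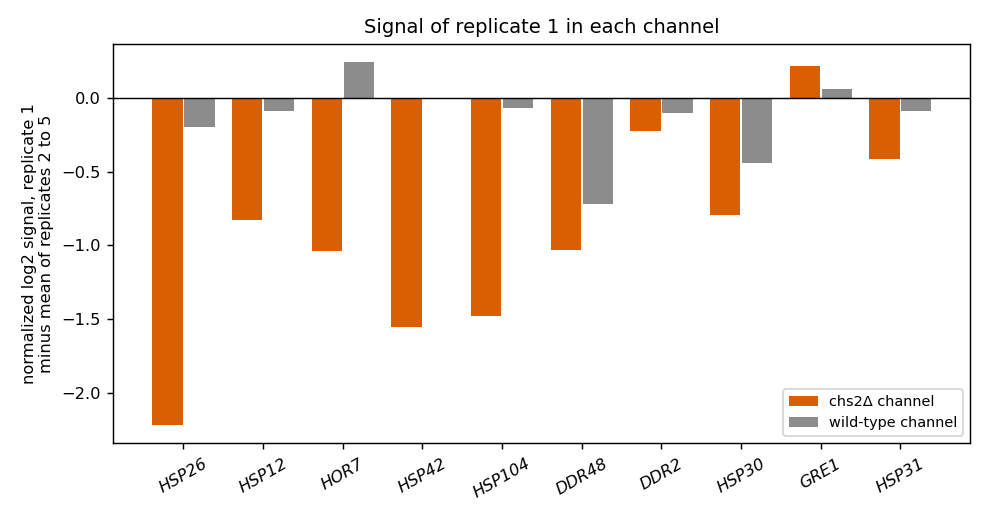
Normalized log2 signal on replicate 1 minus the mean of replicates 2 to 5 for the 10 genes, with the chs2Δ channel in orange left of the wild-type channel in grey. The chs2Δ bar reaches -2.22 for HSP26, while the wild-type bars of HSP26, HSP12, HSP42 and HSP104 stay within 0.20 of 0.

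Replicate 1 is alone on its slide, so the culture pair and the slide cannot be told apart. Its dye orientation is shared with replicates 3 and 5, and against these arrays alone the gap was -1.74 log2 for HSP26, -1.35 for HSP104, -1.32 for HSP42, -1.06 for HOR7 and -0.56 for HSP12. By slide, HSP26 averaged 2.66, 4.44 and 4.92 log2 on slides 1, 2 and 3, and HSP104 1.81, 3.09 and 3.35. Within slides 2 and 3 the array with chs2Δ in Cy3 gave the higher ratio on both slides for all 5 genes with large ratios and for HSP31 among the others. This held for 33.7% of all genes and for 52 of 111 other genes (46.8%) with a mean log2 ratio of at least 2. DDR2 and DDR48 went the other way on both slides. The Cy3 array minus the Cy5 array was -0.10 and -0.43 log2 for DDR2 on slides 2 and 3, and -0.23 and -0.62 for DDR48. The part of the dye in these differences was not tested.

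Genes related to the 10 in sequence or kind were mostly higher in chs2Δ. Of 11 such genes, 9 were called higher, 1 lower and 1 did not pass (limma, adjusted p below 0.05), beside 35.7% higher and 36% lower of all genes, with a median log2 ratio of 1.07 against -0.01 for all genes. The most raised were YBR016W, a tail-anchored membrane protein, at 3.85-fold (log2 1.94, SE 0.08, adjusted p = 5.3e-07), HSP78, the mitochondrial relative of HSP104, at 3.53-fold (log2 1.82, SE 0.20, adjusted p = 6.5e-05), and SNO4, a relative of HSP31, at 3.45-fold (log2 1.79, SE 0.08, adjusted p = 5.7e-07). HSP32 and HSP33, added to the text after their values were seen, are near-identical copies of SNO4 whose probes may read each other's mRNA, and they stood at 3.12-fold and 1.61-fold. STF2, a hydrophilin that stabilizes the inhibited mitochondrial ATP synthase, was 3.25-fold higher (adjusted p = 2e-05), at 0.89 log2 on replicate 1 and 1.78 to 1.96 on the others.

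Not all relatives followed their partner. MRH1, a membrane protein related to HSP30, was lower, at 0.725 times the wild type (-0.46 log2, SE 0.09, adjusted p = 0.0015, limma), while YRO2, its paralog, stood 1.37-fold higher (0.45 log2, SE 0.12, adjusted p = 0.0075) and had a log2 ratio of -0.05 on replicate 1. SIP18, the paralog of GRE1, also added after its values were seen, had a log2 ratio of 0.16 and was not called (adjusted p = 0.066), with a spot above background on 0 arrays in chs2Δ and 1 in wild type. The hydrophilin YJL144W was 1.45-fold higher (adjusted p = 0.00014).

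All 26 genes of a list of textbook Msn2 and Msn4 targets outside the 10 were called higher, beside 35.7% of all genes. Like the lists of relatives, chaperones and regulators, it was chosen with earlier results of these data known, so the count is a description. Their mean log2 ratios ranged from 0.71 to 3.42 around a median of 1.84. PNC1 was measured on 2 arrays only, without replicate 1, and YGP1 on 4 arrays. MSC1, a mitochondrial protein of meiotic recombination, was 10.7-fold higher (log2 3.42, SE 0.20, adjusted p = 2.3e-06, limma), the hexokinase HXK1 9.39-fold (adjusted p = 4.1e-05) and the phosphoglucomutase PGM2 6.71-fold (adjusted p = 4.5e-05). At the lower end stood CTT1, the cytosolic catalase, at 1.63-fold (log2 0.71, SE 0.13, adjusted p = 0.0011), the trehalase NTH1 at 1.68-fold and YHR087W, a protein of RNA metabolism, at 1.72-fold. The call of NTH1 was lost with median centring of the arrays in place of loess (log2 0.21, adjusted p = 0.064, limma), which left 25 of the list called higher. In this list replicate 1 was lowest for 23 of 24 genes with 5 arrays, with a median gap of -0.98 log2. The same count was 9 of 11 in the list of relatives (median gap -0.37), 11 of 22 among the Hsf1 chaperones (-0.19) and 7 of 15 among the regulators (-0.07).

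Chaperones that share Hsf1 as regulator with HSP26, HSP42 and HSP104, or that work beside them, went both ways. Of 22, 12 were called higher, 7 lower and 3 not called, beside 35.7% higher and 36% lower of all genes, with a median log2 ratio of 0.20. With median centring in place of loess 8 were called higher and 10 lower, so the balance of this list depends on the scaling. SSA1, a cytosolic Hsp70 that delivers clients to Hsp104, was 10.7-fold higher (log2 3.42, SE 0.21, adjusted p = 2.9e-06, limma), HSP82, the inducible Hsp90, 2.78-fold (adjusted p = 2.2e-05) and MDJ1, a mitochondrial Hsp40, 2.32-fold (adjusted p = 5.7e-07). YDJ1, the main cytosolic Hsp40 and a partner of Ssa1 and Hsp104, was lower, at 0.455 times the wild type (-1.14 log2, SE 0.07, adjusted p = 2.4e-06). HSP60, the mitochondrial chaperonin, was at 0.583 (adjusted p = 1.1e-05) and HCH1, an activator of Hsp90, at 0.598 (adjusted p = 8.9e-06). SSA1 and HSP82 each have a near-identical copy with a probe of its own, and the copies, added after their values were seen, read differently: SSA2 had a mean log2 ratio of 0.88 (adjusted p = 0.00044, limma) and HSC82 -0.17 (adjusted p = 0.039). How far a probe also takes up the other copy was not tested.

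SSA1 was also lowest on replicate 1, at 2.29 log2 on replicate 1 and 3.44 to 3.96 on the others. MDJ1 was not set apart there, at 1.15 on replicate 1 and 1.15 to 1.33 on the others.

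Among 15 transcription factors and kinases of these stress routes, 8 were called higher, 1 lower and 6 not called, or 60% called beside 71.6% of all genes, with a median log2 ratio of 0.23. The share called higher was 53.3%, beside 35.7% of all genes. With median centring 9 were called higher and 4 lower. TPK2, a catalytic subunit of protein kinase A, was 2.95-fold higher (log2 1.56, SE 0.10, adjusted p = 2.8e-06, limma) and MSN4 2.26-fold (log2 1.18, SE 0.05, adjusted p = 6.4e-07). MSN4 had 1.29 log2 on replicate 1 and 1.10 to 1.21 on the other arrays. Its partner MSN2 was 1.09-fold higher (log2 0.13, SE 0.05, adjusted p = 0.039), a call that was lost when any 1 array was left out (adjusted p of 0.058 to 0.11) and with median centring (log2 -0.02). HSF1 was 1.18-fold higher (log2 0.24, SE 0.05, adjusted p = 0.0044), and SKO1, a repressor of osmotic stress genes, stood at 0.862 (adjusted p = 0.01).

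**Figure D5:**
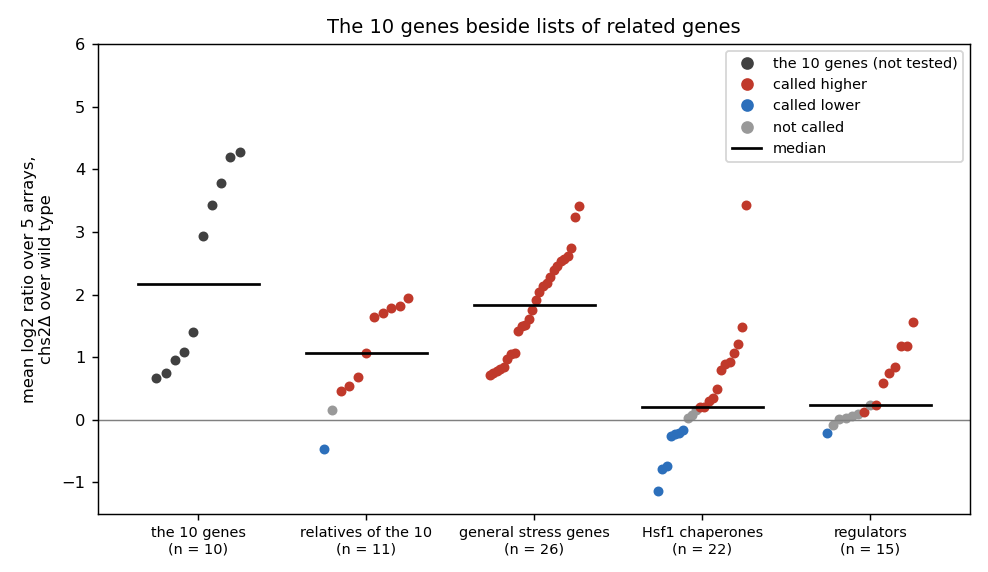
Mean log2 ratio of chs2Δ over wild type on 5 arrays (PNC1 on 2 and YGP1 on 4) for the 10 genes and for 4 lists of related genes, each point 1 gene and each bar a list median, with list genes coloured red where called higher, blue where called lower and grey where not called. All 26 general stress genes lie above 0, while the Hsf1 chaperones range from -1.14 to 3.42.

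The protein-coding genes that lie next to the 10 on the chromosomes, chosen after the data had been seen, were called about as often as all genes. Of 18 neighbours on the array, 10 were called higher, 3 lower and 5 not called, or 72.2% called beside 71.6% of all genes. The share called higher was 55.6%, beside 35.7% of all genes, with a median log2 ratio of 0.25 against -0.01. With median centring 12 were called higher and 4 lower. The largest neighbour ratio was that of GTO3, a glutathione transferase next to HOR7, at 2.56-fold (log2 1.36, SE 0.10, adjusted p = 5.5e-06, limma). SUP35, the translation termination factor next to HSP42, was lower at 0.599 (log2 -0.74, SE 0.06, adjusted p = 7.6e-06). Both neighbours of HSP104, ISA1 and PAU17, were higher, at 1.98-fold and 1.69-fold, and neither neighbour of HSP30 was called.

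Of 29 other genes that the array annotates to the stress response, 15 were called higher, 5 lower and 9 not called, or 69% called beside 71.6% of all genes, with a median log2 ratio of 0.17. The share called higher was 51.7%, beside 35.7% of all genes. With median centring 13 were called higher and 11 lower. The array gives that term to HSP26, HSP42, HSP104, HSP30, HOR7 and DDR2 of the 10. The 5 genes whose ratios on the 5 arrays lay nearest to the median profile of the 10, by Euclidean distance over 5 arrays among 6072 candidates, were MDH1 (distance 0.30 log2), NQM1 (0.33), OM45 (0.39), RCN2 (0.46) and PBI2 (0.47). MDH1 encodes mitochondrial malate dehydrogenase, and its ratios were 1.52, 2.33, 2.29, 2.09 and 2.68 log2 on replicates 1 to 5. The median profile of the 10 genes was 1.48, 2.21, 2.26, 2.34 and 2.58. This profile lies between the 2 size classes and is that of no single gene, so nearness to it does not make a gene like any 1 of the 10.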

How the data were processed

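Messenger RNA of chs2Δ and wild type was compared on 5 2-colour arrays. The authors scanned each channel and deposited each spot's intensity together with its background median and background SD, quantified with ImaGene 6.0.0 per the file headers (an earlier version in the methods), with no correction or normalization. They also deposited log2 ratios of Cy5 over Cy3, corrected and lowess-normalized in limma, used here as an alternative after turning; their correlation with the ratios computed here was 0.9986 to 0.9997 across spots.

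Ratios were computed in R 4.3.3 with limma 3.58.1: normexp background correction (offset 50), global loess within arrays (span 0.3, gene spots only), spots marked as poor left out, spots of a gene averaged, and ratios turned to chs2Δ over wild type. lmFit and eBayes over the 5 arrays gave two-sided tests against 0, with Benjamini-Hochberg adjustment over 6246 genes. The threshold for a call was an adjusted p of 0.05. Signals over background are the intensity minus the background median; a spot was above background when it exceeded that median by 2 SD. All 10 genes were above background in both channels on 5 arrays. Single-channel levels came from loess and Aquantile scaling. Poor spots numbered 115 to 261 per array. The number of arrays limits the precision: for 5, the smallest two-sided p of an exact sign-flip test is 0.063.

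The study states 5 independent cultures per strain, although the series description also speaks of triplicate cultures. The 10 genes and the 4 lists were chosen with earlier results of these data known. Genes named from each list were the 3 highest and 3 lowest called genes and those with an outlying array; the 10 genes, CHS2, MYO1, the mating type markers and the 5 nearest profiles were named too. A regulator that the rule names is not reported here. Of 6256 genes, 5756 were named through RefSeq R64 and 500 by the array; 10 had no usable spot. Probe sequences were not analysed here.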

Additional observations from a re-analysis of the deposited data

Results flagged for a closer look

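Of the 10 genes, only HSP104 had a Dixon's ratio (gap to the nearest array over the whole range) above the limit of 0.71 for an outlying array. The ratio was 0.758, with 1.81 log2 on replicate 1 and 3.03 to 3.42 on the other arrays. HSP26 and HSP42 had larger gaps on replicate 1 (-2.03 and -1.55 log2, beside -1.41 for HSP104), with Dixon's ratios of 0.589 and 0.591. Because the genes were chosen with the weaker ratios of replicate 1 known, these values are a description and not a test. For genes not chosen in this way, chance flags about 1 in 20 groups. Over all 6222 genes that could be tested, 7.38% had an outlying array and 2.28% had replicate 1 as the outlying one.

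In the 4 lists of related genes, 13 of 73 genes had an outlying array, replicate 1 in 10 of them. Of the general stress genes these were TPS2 (0.55 log2), GSY2 (1.72), HXK1 (1.45), YGP1 (0.59), OM45 (1.26), RTN2 (0.37), GAC1 (1.06) and SPI1 (0.0832), 8 of 25, each lowest on replicate 1. The same held for STF2 (0.89) among the relatives and for TPK2 (1.08) among the regulators, where the other arrays lay within 1.67 to 1.70. The outlying value of CUR1 (0.92) was on replicate 5, and those of HCH1 (-0.93) and HSF1 (0.40) on replicate 4. Their part in the list medians was not tested.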

How the results depend on the processing

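The mean ratio of each of the 10 genes was above 0 in the main run and under every alternative (180 values with the main run counted), and the fold depended on the background setting and the scaling. HSP26 ranged from 8.72-fold without background correction to 33.4-fold with an offset of 0, HSP12 from 8.78-fold to 28.1-fold, and HSP42 from 5.92-fold to 14.7-fold under the same settings. With median centring in place of loess, HOR7 was 7.58-fold, HSP104 4.99-fold, DDR48 1.61-fold, DDR2 1.59-fold and HSP31 1.29-fold higher, the median log2 ratio of the 10 genes was 1.64, 4 regulators were lower, and MSN2 turned to -0.0200 log2. Leaving out 1 array moved HSP26 between 4.05 and 4.68 log2 and HSP42 between 3.21 and 3.73; without replicate 1, HSP26 was 25.7-fold higher. The causes were not tested. CUR1 was not called without background correction (adjusted p = 0.11, limma) or with its first spot alone (0.06), HSF1 with its first spot alone (0.084) and YRO2 with the slide as the replicate (0.073). Of 33 list genes that were tested and followed singly, 19 had a fold that some alternative moved by over 1.5 times. MSC1 was 5.87-fold, HXK1 5.51-fold and PGM2 3.72-fold higher without background correction, SNO4 ranged from 1.92-fold to 6.02-fold and TPK2 from 1.76-fold to 4.76-fold with the background setting, and YDJ1 was at 0.280 and MRH1 at 0.412 with median centring. The median gap of replicate 1 over the 10 genes was -0.55 log2, and it was -0.24 with the arrays scaled to 1 spread and -0.82 with the first spot of each gene. No unpaired analysis was run as an alternative: every test is of ratios in which an array pairs both strains.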
